A study of Mus musculus with 3 samples.

Results

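A set of 8 genes of naive and recirculating T cells were followed in 3 RNA libraries of a sorted lymph node population. They are Tcf7, Lef1, Satb1, Foxo1, Foxp1, Bach2, Il7r and Ccr7. They were selected by name from a count table of 17857 genes, with earlier results of these data known, so their levels are given as a description without a test. All 8 were found in the table under their own symbols, and all 8 passed the minimum of 10 counts summed over the libraries. The libraries form 1 group, labelled ckit_pos, with no control population. C57BL/6 mice carried B16F10 melanoma on both thighs and received no treatment, and the tumour-draining lymph nodes were taken at day 14, pooled and dissociated mechanically. Cells lacking CD11c and displaying Ly6c and c-kit were sorted, and total RNA was sequenced. The 3 repeats, called replicates 1, 2 and 3, are described as identical experiments, and the number of mice in each pool is not given in the sources used here. The spread between them may therefore be technical as well as biological.

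A naive T cell circulates between blood and lymph nodes until it meets its antigen. The factors TCF-1 (gene Tcf7) and LEF-1 (Lef1) set up and hold T cell identity, and SATB1 organises chromatin in thymocytes and T cells. FOXO1, a forkhead factor, drives transcription of Il7r and Ccr7 in T cells, FOXP1 holds naive T cells in quiescence, and BACH2 represses effector genes. IL-7 receptor alpha (Il7r) receives a survival signal, and CCR7 guides cells into lymph nodes along the chemokines CCL19 and CCL21. These genes are not confined to T cells: B cells also use Foxo1, Foxp1, Bach2 and Ccr7, and mature dendritic cells use Ccr7.

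Promoter sequences are shown for a member of each class, a transcription factor and a receptor. Il7r was the most uneven of the 8 genes between libraries, and Tcf7 the highest per kilobase. Each window runs from 250 bases before to 50 bases after a RefSeq start in build GRCm38.p6. The Tcf7 window, chr11:52282546-52282845 on the minus strand, belongs to the second of 2 start sites listed for the gene. The Il7r window is chr15:9529827-9530126, also on the minus strand. Capitals mark a match to one of the motifs searched.
Tcf7 start 2: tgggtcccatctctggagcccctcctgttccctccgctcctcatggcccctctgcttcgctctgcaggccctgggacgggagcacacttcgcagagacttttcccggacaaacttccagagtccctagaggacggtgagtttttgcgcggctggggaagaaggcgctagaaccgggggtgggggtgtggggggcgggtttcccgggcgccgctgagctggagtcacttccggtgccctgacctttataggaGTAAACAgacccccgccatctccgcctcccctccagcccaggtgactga
Il7r: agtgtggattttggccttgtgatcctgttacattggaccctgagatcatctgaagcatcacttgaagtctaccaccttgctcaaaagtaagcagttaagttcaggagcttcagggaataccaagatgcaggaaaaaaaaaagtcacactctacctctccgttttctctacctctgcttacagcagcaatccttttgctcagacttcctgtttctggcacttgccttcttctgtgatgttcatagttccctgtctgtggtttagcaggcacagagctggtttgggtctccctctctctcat

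The motifs searched on both strands were those of factor families represented among the 8 genes: CTTTGAT for TCF/LEF, TGTTTAC for forkhead factors, and TGAGTCA for BACH and AP-1 factors. The RefSeq promoter table used matched 7 of the 8 genes, with 17 start sites in all, and Ccr7 was not among them. The match in the Tcf7 window, GTAAACA at base 252, was the forkhead motif on the opposite strand and the only match in the 17 windows. Across all 32851 windows of this length, 3.73% held the TCF/LEF motif, 3.65% the forkhead motif and 5.20% the BACH and AP-1 motif. No match says only that these letters are not in the window. Base composition set the windows apart more. The Il7r window held 1 CpG dinucleotide and 45.7% G and C, against 17 CpG and 64.3% in the Tcf7 window shown. The first Tcf7 start had 45 CpG and 76.3%, and the median of all windows was 7 CpG and 52.7%.

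The libraries held 9077195, 13885509 and 13861430 counts, and levels are given in CPM, counts divided by the library total after edgeR's TMM scaling. Mitochondrial ribosomal RNA took 17.8%, 6.22% and 13.1% of counts in replicates 1, 2 and 3. Kit, the gene of the sorted receptor, stood at 9.83, 5.35 and 5.92 CPM, and the 5 measured precursor and thymocyte markers, Kit included, summed to 27.8, 9.13 and 17.6 CPM. Dntt was highest of them, with 13.1, 3.07 and 10.3 CPM, while Rag1 had 3.38, 0.713 and 1.14 CPM and Cd34 1.06, 0 and 0.152 CPM. All 14 T cell markers lay above 50 CPM on average, and their summed level was 3402, 3920 and 4020 CPM. Of the 14, 9 were lowest in replicate 2 and 5 in replicate 1. The latter include Cd8a and Cd8b1, at 8.66 and 18.2 CPM in replicate 1 against 526 and 421 CPM in replicate 2. The label calls the cells precursors, and by mean CPM each T cell marker stood above each precursor marker, although Cd8a in replicate 1, at 8.66 CPM, lay below Dntt and Kit there.

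TCF-1 and LEF-1 belong to the same family of HMG-box factors. Tcf7 (Entrez gene 21414) spans 52246527 to 52283383 on the minus strand of chromosome 11. Its level was 793 CPM in replicate 1, 1228 in replicate 2 and 988 in replicate 3, or 1003 ± 218 CPM (SD, n = 3). Lef1 (Entrez gene 16842, chromosome 3, 131110297 to 131224357, plus strand) was read at 404, 641 and 595 CPM, or 547 ± 126 CPM. Both genes were lowest in replicate 1 and highest in replicate 2. These differences exceed counting error: the exact 95% Poisson interval of Tcf7 was 775 to 811 CPM in replicate 1 and 1210 to 1247 CPM in replicate 2. By mean CPM, Tcf7 was at percentile 99.6 and Lef1 at percentile 98.97 of the 15490 genes with enough counts. Per kilobase of the gene length in the table, Tcf7 reached 354, 549 and 442 CPM and Lef1 164, 261 and 242 CPM. Tcf7 was thus 2.16, 2.10 and 1.82 times Lef1 in replicates 1, 2 and 3, while the levels themselves differed by 1.55-fold (Tcf7) and 1.59-fold (Lef1) between the highest and lowest library.

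The remaining TCF genes were far lower. Tcf7l2, a family member used outside the T lineage, was read at 7.45, 1.38 and 1.58 CPM per kilobase, highest in replicate 1. Tcf7l1 was read at 1.22, 0.999 and 0.655 CPM per kilobase. Tcf7 exceeded both in 3 of 3 libraries.

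SATB1 stood among the most abundant transcripts. Satb1 (Entrez gene 20230, chromosome 17, 51736187 to 51833290, minus strand) was read at 699, 943 and 988.5 CPM, or 877 ± 156 CPM. Replicates 2 and 3 lay together and replicate 1 below them. Per kilobase it stood at 103, 139 and 146 CPM, and by mean CPM at percentile 99.5.

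The forkhead members kept close to each other across libraries. Foxo1 (Entrez gene 56458, chromosome 3, 52268337 to 52350109, plus strand) was read at 268, 347.5 and 327 CPM, or 314 ± 41.0 CPM. Foxp1 (Entrez gene 108655, chromosome 6, 98925342 to 99522746, minus strand) was read at 457, 580.5 and 547 CPM, or 528 ± 64.1 CPM. Both were lowest in replicate 1 and highest in replicate 2, by less than 1.3-fold. Their CPM ratio, Foxp1 over Foxo1, was 1.70, 1.67 and 1.67, the most even of all 28 pairs among the 8 genes, with a highest-to-lowest quotient of 1.02. Pairs outside the 8 genes were not compared, and most genes above 100 CPM were also lowest in replicate 1.

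Each forkhead member led its own subfamily in every library. Foxo3, which overlaps FOXO1 in function, was read at 26.6, 28.0 and 24.6 CPM per kilobase, Foxo4 at 9.99, 12.1 and 9.30, and Foxo6 at 0.293, 0.0282 and 0.0601. Foxo1 itself stood at 48.3, 62.6 and 58.9 CPM per kilobase. Foxp4 was read at 13.6, 19.7 and 17.2 CPM per kilobase, against 61.0, 77.6 and 73.1 for Foxp1. Foxp3, the factor of regulatory T cells, was read at 13.7, 6.84 and 13.8 CPM per kilobase, lowest in replicate 2, where Foxp1 was highest. Foxp2 had 42, 0 and 6 counts.

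BACH2 was the lowest of the 8 genes per kilobase. Bach2 (Entrez gene 12014, chromosome 4, 32238413 to 32586109, plus strand) was read at 171, 208 and 216 CPM, or 198 ± 23.9 CPM. Replicate 1 was again the low library. Per kilobase this was 20.1, 24.5 and 25.4 CPM, above its relative Bach1 in 3 of 3 libraries (12.2, 17.0 and 12.4 CPM per kilobase). Bach2 lay at percentile 94.1 by CPM and 80.8 per kilobase, the largest drop among the members, since its listed length of 8493 bases was the greatest. An antisense gene, Bach2os, has a row of its own and held 17, 5 and 3 counts. Prdm1, which BACH2 represses in lymphocytes, was read at 19.3, 19.4 and 17.2 CPM.

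Of the receptors, Il7r varied most and Ccr7 least. Il7r (Entrez gene 16197, chromosome 15, 9506159 to 9529941, minus strand) was read at 442, 714 and 710 CPM, or 622 ± 156 CPM. Replicates 2 and 3 were nearly equal and replicate 1 was 1.61-fold below the highest. Ccr7 (Entrez gene 12775, chromosome 11, 99144199 to 99155077, minus strand) was read at 155, 146 and 142 CPM, or 148 ± 6.88 CPM. It was the only member that was highest in replicate 1 and lowest in replicate 3, and those libraries differed by 1.10-fold. The exact 95% Poisson interval of Ccr7 was 147.6 to 164 CPM in replicate 1 and 140.1 to 153 CPM in replicate 2. In replicate 3 it was 135.6 to 148.5 CPM, and each interval overlapped the others. Il2rg, the common chain that pairs with IL-7 receptor alpha, was read at 200.3, 203 and 192 CPM per kilobase, against 138, 222 and 221 for Il7r. Crlf2, which pairs with Il7r to bind TSLP, was read at 16.0, 9.75 and 13.6 CPM per kilobase.

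**Figure D1:**
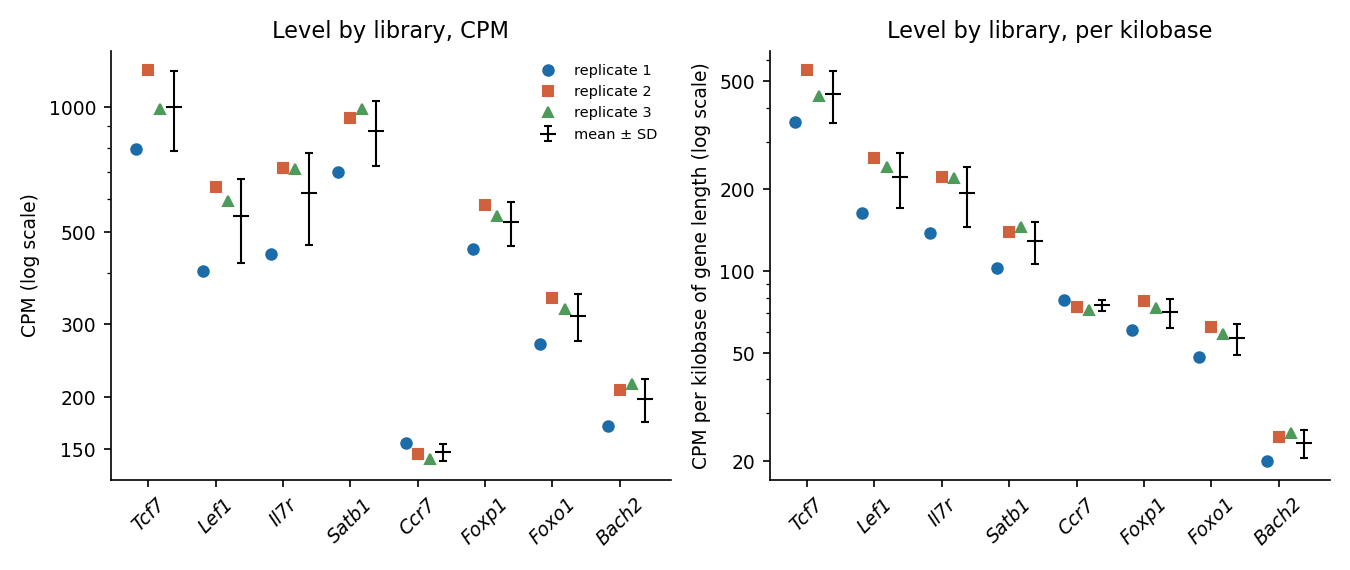
Levels of the 8 genes in replicates 1 (circles), 2 (squares) and 3 (triangles), as CPM on the left and CPM per kilobase of the deposited gene length on the right, both on log axes, with mean ± SD as bars. Replicate 1 is the lowest point for 7 genes and the highest for Ccr7.

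**Figure D2:**
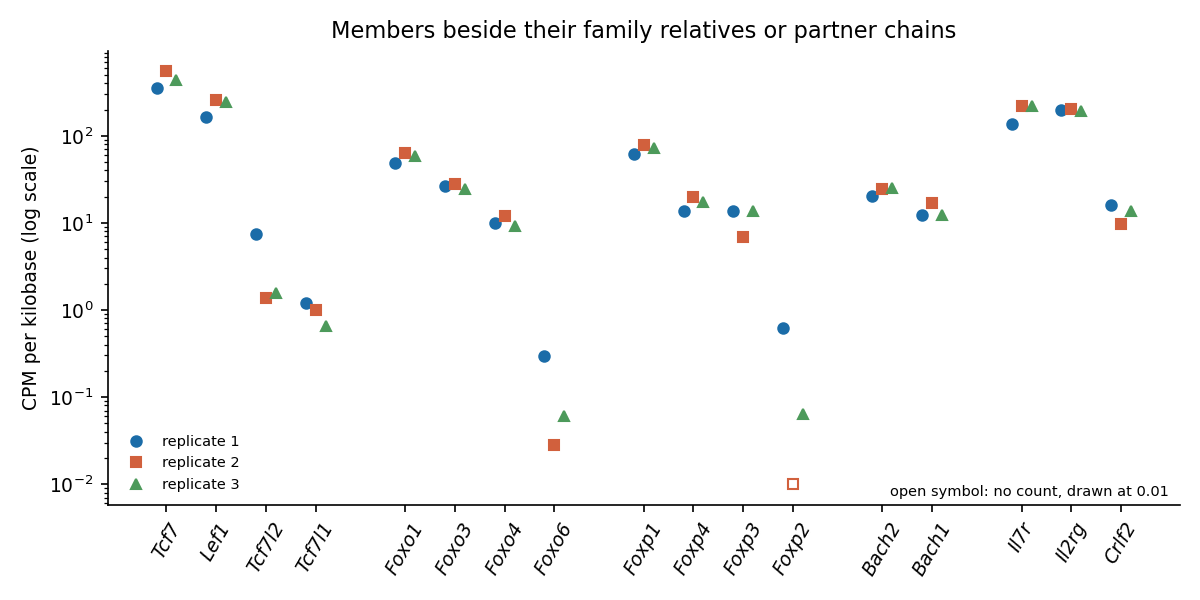
CPM per kilobase (log axis) of members beside their family relatives, or beside partner chains for Il7r, with 1 symbol per library and an open symbol where a library had no count. Tcf7, Foxo1, Foxp1 and Bach2 lie above every relative plotted, while Il7r and Il2rg lie side by side.

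The ligands of the 2 receptors were at or near 0. Ccl19 and Ccl21a had no count in any library, which allows up to 3 counts, or 0.317, 0.214 and 0.228 CPM. Ccl21a has near-identical copies in the genome, so its reads may have been lost in counting. Il7 had 1, 1 and 6 counts, and Tslp had 9, 0 and 0. Ackr4, which scavenges the CCR7 ligands, had 3, 2 and 0 counts.

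Per kilobase, the order by mean was Tcf7 (448), Lef1 (222), Il7r (194), Satb1 (129), Ccr7 (74.9), Foxp1 (70.5), Foxo1 (56.6) and Bach2 (23.4 CPM per kilobase). Across libraries the ranges of neighbours were apart at 3 of the 7 steps: Tcf7 over Lef1, Satb1 over Ccr7 and Foxo1 over Bach2. Within libraries each step held in 3 of 3, except that Ccr7 exceeded Foxp1 only in replicate 1. Lef1 was 1.09 to 1.19 times Il7r, a narrow but repeated difference. The order depends on the length used. The table gives 2460 bases for Lef1 and 6788 for Satb1, and the union of their GENCODE M21 exons is 8788 and 19027 bases. With that union, tried after the data were seen, the order became Tcf7 (382), Il7r (133), Ccr7 (74.8), Lef1 (62.2), Satb1 (46.1), Foxp1 (38.4), Foxo1 (36.3) and Bach2 (19.9 CPM per kilobase). Tcf7 stayed first and Bach2 last under both lengths.

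**Figure D3:**
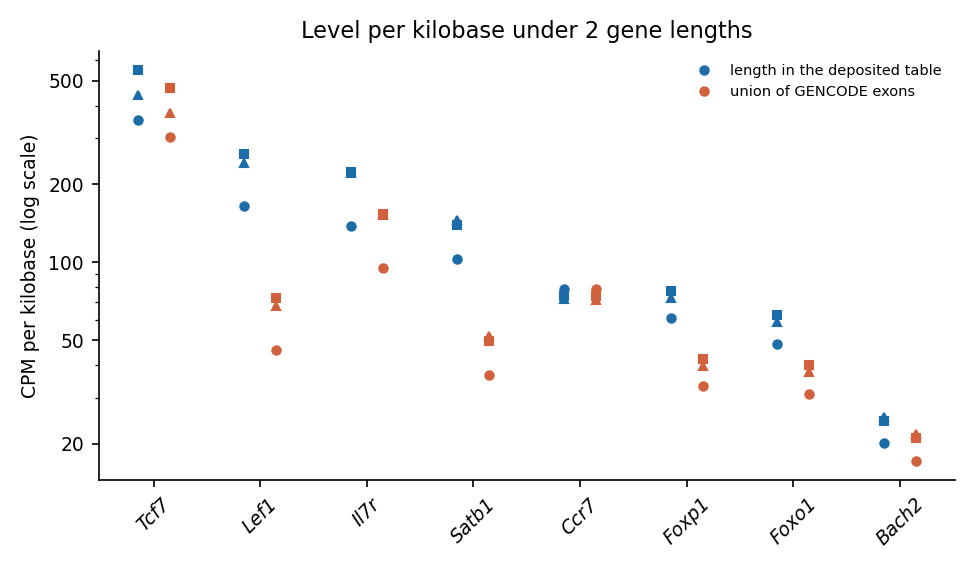
CPM per kilobase (log axis) of each member in the 3 libraries (circle, square and triangle for replicates 1, 2 and 3), divided by the deposited gene length (blue) or by the union of GENCODE exons (orange). Lef1 and Satb1 shift most, and Ccr7, whose lengths are 1975 and 1978 bases, does not move visibly.

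The 7 members other than Ccr7 shared their low library, and so did most abundant genes. Of the 2035 genes above 100 CPM, 77.9% were lowest in replicate 1, 17.1% in replicate 2 and 4.96% in replicate 3, so 7 of 8 is near that background. The sum of the 8 genes was 3390, 4809 and 4513 CPM. In a bulk sample, fewer cells of a type and less RNA per cell cannot be told apart. Replicate 1 also held the most erythroid RNA, with all 5 markers at their highest there (summed 2917, 38.6 and 212 CPM), and the most B cell RNA, with 8 of 8 markers at their highest (351, 141 and 189.5 CPM). The part of these in the low member levels of replicate 1 was not tested. Gene length also moved with the libraries: across the 2035 genes, which are not independent replicates, Spearman's rho between length and the log2 difference of replicate 2 over replicate 1 was 0.29.

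Set beside the 200 abundant genes nearest in length, members differed from each other. The log2 difference of replicate 2 over replicate 1 was 0.69 for Il7r, 0.67 for Lef1 and 0.63 for Tcf7, where the medians of their neighbours were 0.35, 0.37 and 0.27. For Foxo1, Foxp1 and Bach2 it was 0.37, 0.35 and 0.28, under the medians of 0.45, 0.47 and 0.47. Satb1 had 0.43 against 0.48. Ccr7 had -0.09 against 0.21, at percentile 25.5 of its neighbours, where Tcf7, Lef1 and Il7r were at 80.5, 82.5 and 86.0. For replicate 3 over replicate 1, Tcf7, Lef1 and Il7r had 0.32, 0.56 and 0.68 (percentiles 62.0, 88.5 and 94.5) and Ccr7 had -0.13 (percentile 8.5). Satb1 changed sides, with 0.50 against a median of 0.39 (percentile 75.5). Foxo1, Foxp1 and Bach2 again lay under the medians of their neighbours, at percentiles 34.5, 24.5 and 39.5.

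Ratios between members were compared across the libraries. Among the 21 pairs without Ccr7, the ratio in the highest library was at most 1.34 times that in the lowest, and over all 28 pairs 11 stayed under 1.2. Il7r over Lef1 was 1.09, 1.11 and 1.19 in CPM. Every pair with Ccr7 moved by more, from 1.35 for Foxp1 to 1.76 for Il7r, the latter above the 1.61 of Il7r alone.

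The spread of the members was compared with that of the 500 genes nearest in level. The SD of log2 CPM was 0.07 for Ccr7, 0.18 for Bach2 and Foxp1, 0.19 for Foxo1, 0.27 for Satb1, 0.32 for Tcf7, 0.36 for Lef1 and 0.40 for Il7r. Ccr7 was at percentile 3.0 of its neighbours, and Il7r at 76.8. The others ran from 21.2 for Foxp1 to 69.4 for Lef1. Apart from Ccr7, the members thus lay well inside the spread of their neighbours. For the highest members these neighbours were not all close in level. They ran from 292 to 2742 CPM for Tcf7 and from 288 to 2254 CPM for Satb1, against 125 to 185 CPM for Ccr7.

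**Figure D4:**
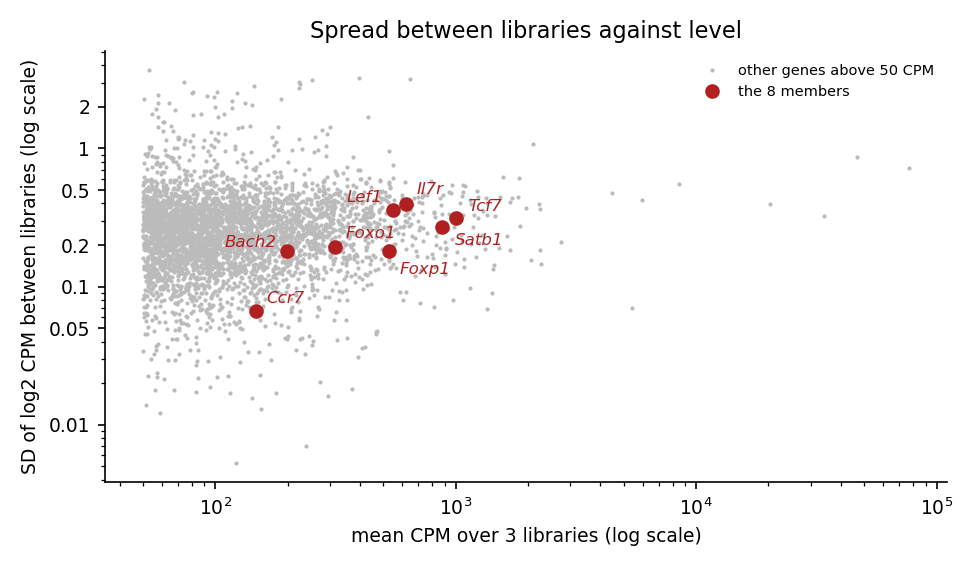
SD of log2 CPM between the 3 libraries (log axis) against mean CPM (log axis) for genes above 50 CPM (grey) and the 8 members (red). Ccr7 lies at the low edge of the cloud at 0.07, and Il7r is the highest member at 0.40.

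The coreceptor genes varied far more between libraries than the members. In replicates 1, 2 and 3, the level of Cd8a was 8.66, then 526, then 135 CPM, and that of Cd4 was 482, then 167, then 470 CPM. Cd8a thus varied 60.7-fold and Cd4 2.88-fold, where the largest quotient among the members was 1.61. Of the chains of the T cell receptor complex, Cd3e was lowest in replicate 1 and highest in replicate 2, like 5 of the members, while Cd3d and Cd3g were lowest in replicate 2. Cd3d was read at 142, 116 and 165 CPM, Cd3e at 315, 439.5 and 378 CPM, and Cd3g at 458, 322.5 and 472 CPM. Their geometric mean was 273.5, 254 and 309 CPM. Divided by it, Tcf7 was 2.90, 4.83 and 3.20, Lef1 was 1.48, 2.52 and 1.93, and Il7r was 1.62, 2.81 and 2.30. Ccr7 was 0.568, 0.576 and 0.459. The divisor was itself lowest in replicate 2, which raises every gene there alike. On this scale 70.3% of the genes above 100 CPM were lowest in replicate 1 and 81.2% highest in replicate 2, beside 7 and 8 of the 8 members.

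**Figure D5:**
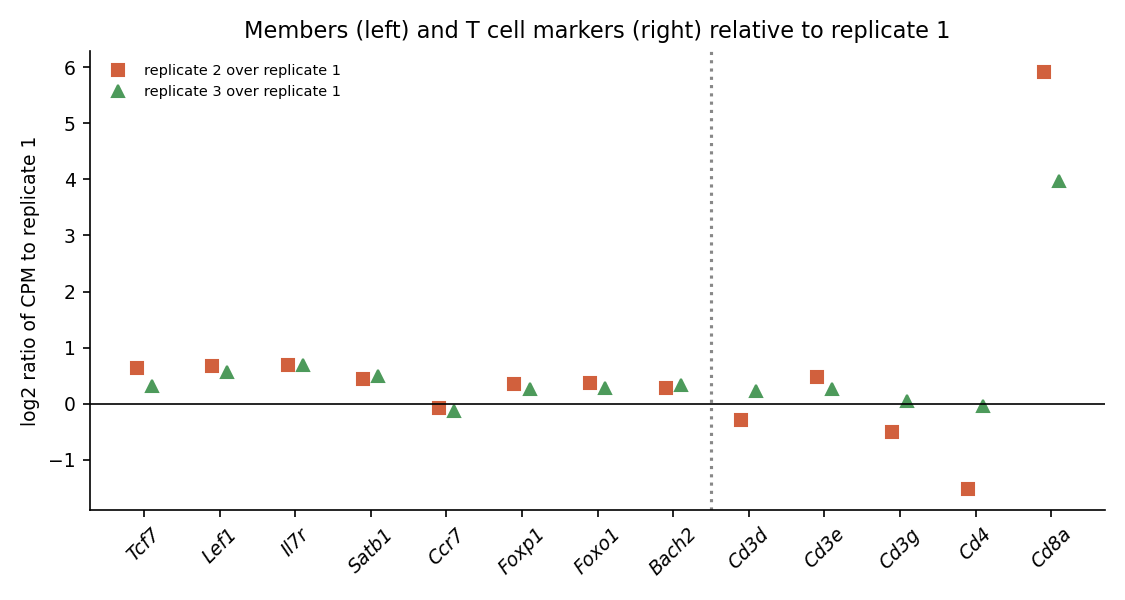
Log2 ratio of CPM in replicate 2 (squares) and replicate 3 (triangles) to replicate 1, for the 8 members left of the dotted line and 5 T cell markers right of it. Members lie between -0.13 and 0.69, while Cd4 falls and Cd8a rises well beyond that range in replicate 2.

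Other genes of naive and recirculating T cells stood high as well. Each gene was tested against 50 CPM with edgeR's quasi-likelihood method, with Benjamini-Hochberg adjustment over all 15490 genes. This list and those of the next paragraphs were chosen with earlier results of these data known, and genes were named partly by their level. Their calls and p-values therefore describe levels and are no independent support. Of all genes tested, 19.9% lay above 50 CPM and 66.7% below. Of 21 measured genes in the list, 17 lay above and 3 below, and the list's median was 299 CPM against 12.4 CPM for all genes tested. Itga4, an integrin chain of homing lymphocytes, was read at 1177 ± 210 CPM (edgeR adjusted p = 4.66e-08), and Btg1, a brake on proliferation, at 963 ± 318 CPM (1.36e-07). S1pr1, the receptor for exit from lymph nodes, was read at 464, 451 and 552 CPM, and Klf2, which drives S1pr1, at 266, 466 and 352.5 CPM. The lowest were Dapl1 (34.7 ± 8.87 CPM, edgeR adjusted p = 0.0380) and Ccr9, a gut homing receptor (21.2 ± 6.14 CPM, 0.00216), both below 50 CPM. Dapl1 lost its call without replicate 1 (0.0911) or replicate 3 (0.0947). In this list 12 of 21 genes were lowest in replicate 1 and 7 in replicate 2, among the latter Btg1 (1102, 599 and 1187 CPM) and Igfbp4 (334, 175 and 333 CPM).

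Among 20 measured partners, ligands and receptor chains, 8 lay above 50 CPM, 5 below and 2 were not separated from it. Another 5 had too few counts to test. The shares of all genes tested were 19.9% above and 66.7% below. Jak1, the kinase bound to IL-7 receptor alpha, was read at 1344 ± 360.5 CPM (edgeR adjusted p = 4.66e-08) and Il2rg at 320.2 ± 9.02 CPM (5.11e-07). Ctnnb1, the beta-catenin that binds TCF-1 and LEF-1, was read at 208 ± 24.1 CPM, and the corepressor genes Tle3 and Tle4 at 259 ± 77.7 and 159 ± 30.4 CPM. Of the 10 family relatives, Foxo3, Foxp4 and Bach1 lay above 50 CPM, 6 lay below and Foxp3 was not separated from it (edgeR adjusted p = 0.520). These counts of relatives are near the shares of all genes tested. Without replicate 3, 2 relatives were called below 50 CPM, and Foxp4 was no longer called above it (edgeR adjusted p = 0.125; 0.124 without replicate 2).

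Activation and effector genes were lower than the other naive and recirculation genes, and split. Of 15 measured, 5 lay above 50 CPM, 6 below and 4 were not separated. Among all genes tested, 19.9% lay above and 66.7% below. The list's median was 47.7 CPM, against 12.4 CPM for all genes tested. Il2rb, the IL-2 receptor beta chain, was read at 125, 451 and 195 CPM, and Cd44, an adhesion receptor raised on memory cells, at 220, 257 and 211 CPM. Klrg1, a receptor of terminal effectors, was read at 4.98 ± 0.546 CPM (edgeR adjusted p = 5.51e-04) and Gzmb, a granzyme, at 16.7 ± 9.33 CPM (0.00746). In this list 9 of 15 genes were highest in replicate 2, among them Tbx21 (19.7, 93.3 and 30.2 CPM) and Ccl5 (37.4, 279 and 102 CPM). Of genes above 100 CPM, 55.9% were highest there. That share is only a rough guide for this list, whose median level was lower. The members Tcf7, Lef1, Foxo1, Foxp1 and Il7r were highest in replicate 2 as well, and 5 of 8 is near that share. All 5 NK markers were highest in replicate 2 (summed 58.3, 494 and 199 CPM), and their part in the member levels was not tested.

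Other cell types that use members were measured beside them. For Ccr7, 10 markers of dendritic cells were measured. Itgax was highest of them, with 26.9, 43.2 and 24.0 CPM, followed by Flt3 with 12.5, 16.1 and 7.29 CPM. These 2 were highest in replicate 2, while 7 of the 10 were highest in replicate 1, as Ccr7 was, and 1 in replicate 3. Fscn1 of mature cells had 6.66, 0.0713 and 4.56 CPM, Ccl22 had 6, 0 and 1 counts, Il4i1 had 2, 0 and 0 counts, and the 10 markers summed to 79.7, 73.4 and 49.6 CPM. For Foxo1, Foxp1, Bach2 and Ccr7, the 8 B cell markers were all detected. These markers were highest in replicate 1, where Foxo1, Foxp1 and Bach2 were lowest and Ccr7 was highest. For monocytes, 5 markers summed to 602, 783 and 315 CPM, and for neutrophils 5 markers summed to 161, 64.5 and 651 CPM, with Ly6g at 0 in replicates 1 and 2. The part of these cells in the member levels was not tested.

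For each member the genes of most similar level and pattern were found by the largest absolute difference in log2 CPM over the 3 libraries. Il7r was matched by Tnrc6b (0.01) and Kmt2e (0.03), Lef1 by Nsd3 (0.09), and Tcf7 by Ablim1 (0.10) and Ncor1 (0.14). Satb1 was matched by Nsd1 and Chd2, Foxo1 by Fam107b and Khdrbs1, Foxp1 by Cnot1 and Wdr26, Bach2 by Cflar and Shprh, and Ccr7 by Ssr1 and Qk. Within 0.25 log2 units in all 3 libraries lay from 6 genes for Tcf7 to 154 for Bach2. How often genes of similar level are this alike in 3 libraries was not measured, so the likeness is given as a description.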

How the data were processed

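The deposited values are raw read counts per gene in 3 bulk RNA libraries of 1 group, beside a gene length in bases and an Entrez identifier, per the file headers. Input was 8 ng of total RNA and a stranded kit, per the labels' protocols. Per the submitters' processing notes, bcl2fastq, STAR 2.75, featureCounts and DESeq2 1.18.1 were used with build mm10. Roles, annotation, strand setting, filters and the handling of multiply matching reads are not given in the sources used here. Reads of antisense genes could therefore count towards a member: in GENCODE M21, Tcf7, Lef1, Satb1, Foxo1 and Bach2 have an opposite-strand gene over an exon. Same-strand genes also lie over an exon of Tcf7, Satb1 and Foxp1, in Foxp1 including the protein-coding Gm20696.

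CPM was computed here with edgeR 4.0.16 and TMM factors of 1.04, 1.01 and 0.950. Log2 values used a pseudocount of 0.1 CPM. Of 17857 genes, 15490 summed to at least 10 counts and entered the tests, and 17795 identifiers matched RefSeq genes of GRCm38.p6. Genes that are no member were tested two-sided against 50 CPM by edgeR's quasi-likelihood method, with an intercept alone, the reference in the offsets and a threshold of 0.05. The F statistic was computed from edgeR's fit. It was tried on counts simulated with the same dispersion for every gene. That check required only that levels far from 50 CPM were mostly called in the right direction, and set no limit on false calls.

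The members and gene lists were chosen with earlier results of these data known. The rule names all members and family relatives, chosen partners and markers, and the 2 highest and 2 lowest of each list, of which marker lists are given by their sums. Ctnnb1, Tle3, Tle4, Crlf2, Tslp, Ackr4, Tbx21, Ccl5, Igfbp4, Fscn1 and Bach2os were named after their values were seen. Some genes the rule would name are not reported here, and Tle5, Rflnb, Ifng and Rag2 were not analysed here. In a check for duplicates, chi-square per degree of freedom was 118, 42.7 and 67.4 for the library pairs. Intervals and limits cover counting error only. Alternatives were DESeq2 1.42.0, other scalings, filters, reference levels and gene lengths, and leaving out each library.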

Additional observations from a re-analysis of the deposited data

How the results depend on the processing

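No paired analysis was possible because the labels give 1 group, so no groups share replicate numbers. The number of members lowest in replicate 1 was 7 under TMM factors, DESeq2 size factors, library totals alone and totals without the 2 mitochondrial ribosomal RNA genes. It was also 7 without replicate 2 or 3, but a gene lowest in replicate 1 stays lowest when another library is dropped. The scalings were a weak check too. Library totals alone moved the median gene by 0.06, 0.01 and -0.07 log2 units in replicates 1, 2 and 3. The smallest gap of those members to replicate 1 was 0.26, for Foxp1 in replicate 3. Leaving out mitochondrial RNA raised the median gene by 0.19 log2 units in each library. The median quotient of highest to lowest library of the members was 1.35, and 1.05 to 1.32 when 1 library was left out, the lowest without replicate 1. Against 25 CPM, the calls above and below were 5 and 2 for family relatives, below it 2 for partners and 0 for other naive genes, 8 and 1 for effector genes, and 4979 and 6270 for all genes. Against 100 CPM, 0 relatives and 2 effector genes lay above, 10 effector genes below, and 1519 of all genes above. With no filter on low counts, 8 partners lay below 50 CPM. Leaving out 1 library gave 2 to 5 relatives, 1 to 2 other naive genes and 5513 to 10588 of all genes below 50 CPM, where the full data gave 6, 3 and 10336. Without replicate 3 these were 2, 1 and 5513, with 1 residual degree of freedom; the cause was not tested. The order of the members per kilobase changed with GENCODE exon lengths. The ranges of neighbours were apart at 3 steps with either length and in CPM, but these were different steps, of which Foxo1 over Bach2 was in all 3 orders. Depth was no tight limit for the members, whose smallest count was 1471, while the number of libraries limits every SD.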
